A study of Arabidopsis thaliana with 10 samples.

Results

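The complex of SEPALLATA3 (SEP3) and AGAMOUS (AG) was compared with SEP3Δtet-AG, in which SEP3 is replaced by a splice variant that lacks part of the region through which MADS proteins tetramerise. The comparison asked which Arabidopsis thaliana genes carried binding sites with the mutant complex, with the SEP3-AG complex or with both. It used 5 of the 9 libraries of the series, 2 of SEP3Δtet-AG and 3 of SEP3-AG. In both groups the proteins were made in vitro in a wheat germ extract, with FLAG tags on SEP3 or SEP3Δtet and Myc tags on AG. The complexes were purified through FLAG and then Myc, and both groups carried the same AG construct. They were incubated with amplified genomic DNA of 2-week-old Col-0 seedlings, free of chromatin proteins. Binding was thus measured on naked DNA and not in the flower. The protein reactions were run in replicate, but the sources do not tie each library to its own reaction, so a p-value measures only the spread between these libraries, which may be technical. A single input DNA library was the control of all of them.

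MADS-domain proteins bind the CArG box as dimers, and SEP proteins join dimers into tetramers through their keratin-like domain. In the floral quartet model such tetramers hold a pair of DNA sites and set the identity of each floral organ. SEP3 with AG specifies stamens and carpels, and AG also ends the growth of the floral meristem.

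A summit is the highest point of a peak called by the authors in 1 library. A gene was counted as bound in a library when a summit lay between 3000 bp upstream of its start and 1000 bp downstream of its end. All 27444 nuclear protein-coding genes were placed in a class. SEP3Δtet-AG-only genes were bound in both mutant libraries and in no SEP3-AG library, and SEP3-AG-only genes were bound in all 3 SEP3-AG libraries and in neither mutant library. Genes of the third class were bound in all 5 libraries. Summits within 200 bp of each other in different libraries were taken as 1 site, and each site was classed by libraries in the same way as genes. The peak lists held 3331 and 2329 summits for SEP3Δtet-AG and 8888, 6643 and 9588 for SEP3-AG. The mutant libraries were 1.29 and 2.15 times as deep as the input DNA, against 1.25 and 1.14 times for SEP3-AG replicates 1 and 2, and SEP3-AG replicate 3 was no deeper than the input. The part of depth in the length of the lists was not tested. A gene with no summit may still be bound below the calling threshold of that library.

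The DNA around the summits is shown for sites on which the comparison turned, 50 bp to either side of the summit, from the plus strand of TAIR10.1. Capitals mark a CArG box, here CC, then 6 bases that are each A or T, then GG, or the nearest match with 1 mismatch where no exact box was present. The first 3 sites were bound in all 5 libraries and each held an exact box. SHP2 encodes a MADS protein of ovules and fruit valve margins, SUP a zinc finger protein that sets the border between stamens and carpels, and the AG site lies in the long intron that controls AG transcription.
SHP2, 252 bp upstream, chr2:17819812-17819912: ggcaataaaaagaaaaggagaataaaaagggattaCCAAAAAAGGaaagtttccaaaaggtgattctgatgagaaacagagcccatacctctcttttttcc
SUP, 920 bp upstream, chr3:8241286-8241386: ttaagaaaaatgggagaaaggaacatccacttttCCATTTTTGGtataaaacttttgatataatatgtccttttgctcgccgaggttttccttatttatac
AG, intron, chr4:10386496-10386596: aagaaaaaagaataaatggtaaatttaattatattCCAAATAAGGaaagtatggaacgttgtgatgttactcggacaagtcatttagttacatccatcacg
Boxes were at chr2:17819847-17819856 (CCAAAAAAGG), chr3:8241320-8241329 (CCATTTTTGG) and chr4:10386531-10386540 (CCAAATAAGG), within 11 bp of the summits.

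KNU, which encodes a zinc finger repressor that ends the floral meristem, is shown because its upstream region held a site of each kind. Its first site was bound in all 5 libraries and held no box even with 1 mismatch. The site nearer to the gene was called with SEP3-AG only.
KNU, 1226 bp upstream, all 5 libraries, chr5:4520873-4520973: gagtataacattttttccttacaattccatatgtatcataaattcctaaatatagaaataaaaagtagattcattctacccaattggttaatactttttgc
KNU, 860 bp upstream, SEP3-AG only, chr5:4521239-4521339: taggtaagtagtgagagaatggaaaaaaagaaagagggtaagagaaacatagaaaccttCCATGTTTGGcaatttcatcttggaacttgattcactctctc
The capitals of the nearer site, CCATGTTTGG, differ from the box definition at 1 base.

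Further SEP3-AG-only sites are shown for 4 genes described below, 2 with an exact box and 2 with 1 mismatch.
SOC1, 724 bp upstream, chr2:18811799-18811899: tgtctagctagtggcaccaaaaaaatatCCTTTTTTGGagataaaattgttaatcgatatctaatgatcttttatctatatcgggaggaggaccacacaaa
ETT, 1227 bp upstream, chr2:14330155-14330255: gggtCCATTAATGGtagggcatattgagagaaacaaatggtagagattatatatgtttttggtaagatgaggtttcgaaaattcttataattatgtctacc
AG, 151 bp upstream, chr4:10382655-10382755: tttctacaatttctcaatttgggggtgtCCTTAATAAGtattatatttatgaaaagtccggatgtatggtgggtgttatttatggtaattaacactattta
ALC, 159 bp upstream, chr5:26786540-26786640: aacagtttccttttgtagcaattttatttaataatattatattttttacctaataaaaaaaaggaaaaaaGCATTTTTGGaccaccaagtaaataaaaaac

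Examples of SEP3Δtet-AG-only sites are shown for ASML2 and AT1G10095, and SEP3-AG-only sites of high enrichment without a box for STT3A and AS1. Of these 4 windows only that of ASML2 held a stretch within 1 mismatch of the box.
ASML2, 265 bp upstream, SEP3Δtet-AG only, chr3:4098884-4098984: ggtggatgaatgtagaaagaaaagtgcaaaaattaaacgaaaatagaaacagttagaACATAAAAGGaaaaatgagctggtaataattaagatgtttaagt
AT1G10095, 75 bp upstream, SEP3Δtet-AG only, chr1:3300541-3300641: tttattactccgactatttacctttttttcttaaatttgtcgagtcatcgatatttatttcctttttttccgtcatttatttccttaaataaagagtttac
STT3A, intron, SEP3-AG only, chr5:6655220-6655320: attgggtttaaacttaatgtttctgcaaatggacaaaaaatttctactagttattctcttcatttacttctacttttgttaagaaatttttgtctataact
AS1, 1521 bp upstream, SEP3-AG only, chr2:15784951-15785051: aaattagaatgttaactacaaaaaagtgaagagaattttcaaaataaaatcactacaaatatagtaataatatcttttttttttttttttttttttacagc

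SEP3Δtet-AG bound fewer genes than SEP3-AG in every pair of libraries. The mutant libraries bound 4573 and 3271 genes (16.7% and 11.9% of all), against 10503, 8308 and 10873 (38.3%, 30.3% and 39.6%) for SEP3-AG. The means were 3922 ± 921 (SD, n = 2) with SEP3Δtet-AG and 9895 ± 1386 (SD, n = 3) with SEP3-AG, and the groups did not overlap. An exact two-sided permutation test over the 5 libraries gave p = 0.1, the smallest value that 2 libraries against 3 allow. It therefore could not pass 0.05. Every list was then limited to its 2329 highest-ranked summits, the length of the shortest list. The mutant libraries so limited bound 3331 and 3271 genes, against 3360, 3370 and 3295 (exact p = 0.4). With lists of equal length the number of genes is largely set by the number of summits. This test therefore cannot tell how many genes each complex bound.

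The classes were uneven in the same way. With all summits, 99 genes were SEP3Δtet-AG only (0.361% of the 27444 genes), 4183 were SEP3-AG only (15.2%) and 2788 were bound in all 5 libraries (10.2%). A further 4908 genes were bound in other combinations and 15466 in no library. Of the 3103 genes bound in both mutant libraries, 89.8% were also bound in all 3 SEP3-AG libraries. Of the 8097 genes bound in all 3 SEP3-AG libraries, 34.4% were bound in both mutant libraries.

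This asymmetry did not hold at equal list length. When each list kept its 2329 best-ranked summits, 924 genes were SEP3Δtet-AG only (3.37%), 1033 were SEP3-AG only (3.76%) and 1577 were bound in all 5 (5.75%). Of the 924, 71 were SEP3Δtet-AG only with all summits as well, 701 were bound in all 5 and 152 fell in other combinations. Of the 1033, 864 were SEP3-AG only with all summits. The equal length left out 1002 and 0 summits of the mutant lists, against 6559, 4314 and 7259 of the SEP3-AG lists. The way genes moved between classes was therefore largely set by which lists were shortened, and is given as a description.

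**Figure D1:**
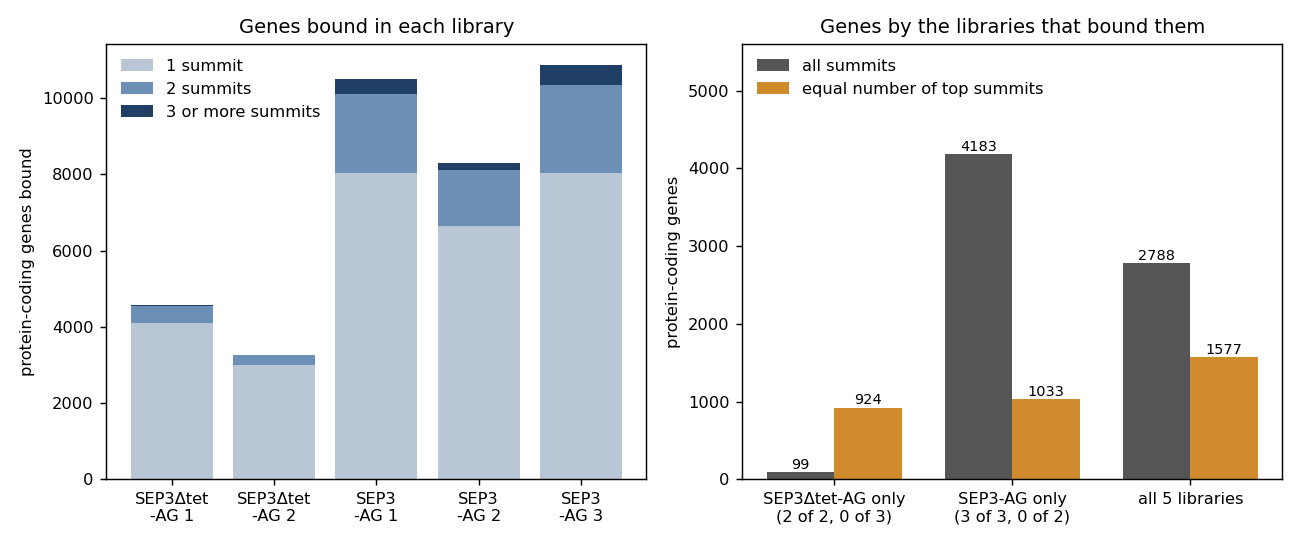
Left, protein-coding genes with 1, 2 or 3 and more summits in each library. Right, genes by class with all summits and with the 2329 highest-ranked summits of each library. The SEP3Δtet-AG-only class held 99 genes with all summits and 924 at equal list length, and the SEP3-AG-only class held 4183 and 1033.

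SEP3Δtet-AG-only genes ranked low in the mutant lists. Their best summits had a median rank of 60.9% and 58.5% from the top of the mutant lists, against 29.3% and 41.5% for the genes bound in all 5 libraries. The best summits of SEP3-AG-only genes had median ranks of 42.4%, 56.0% and 40.03% in the SEP3-AG lists, against 17.3%, 23.2% and 16.0% for the genes bound in all 5. Since 1 summit can lie in the region of several neighbouring genes, the classes held fewer summits than genes. Leaving aside summits that also lay at a gene bound in all 5 libraries, the 99 SEP3Δtet-AG-only genes had 59 and 57. The 4183 SEP3-AG-only genes had 2953, 2662 and 3111 on the same count. Each summit within reach of a gene touched on average 1.70 genes with SEP3Δtet-AG and 1.71 with SEP3-AG. The genes of the classes also differed in length. The median was 1956 bp for SEP3Δtet-AG-only genes, 2264 bp for SEP3-AG-only genes and 2375.5 bp for those bound in all 5, against 2078 bp for all genes.

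A smaller share of sites held a CArG box at genes of a single complex than at genes bound in all 5 libraries. Summits in reach of both kinds of gene were counted only with the genes bound in all 5. An exact box lay within 50 bp of 5.08% and 5.26% of the summits at SEP3Δtet-AG-only genes in the 2 mutant libraries, and of 13.8% and 13.7% of the mutant summits at genes bound in all 5. In the SEP3-AG libraries the shares were 7.04%, 7.10% and 7.39% at SEP3-AG-only genes and 11.2%, 12.4% and 12.1% at genes bound in all 5. Windows of the same length 1000 bp to the side held a box in 0.515% to 0.585% of cases, which gives the background. With 1 mismatch allowed, the mutant libraries had 52.5% and 52.6% at SEP3Δtet-AG-only genes. At genes bound in all 5 they had 62.6% and 62.9%. The SEP3-AG libraries had 46.9%, 47.4% and 49.2% at SEP3-AG-only genes, against 58.2%, 59.9% and 61.0% at genes bound in all 5. Windows to the side then held 11.1% to 11.4%. The 59 and 57 mutant-only summits are few, so their exact-box shares rest on 3 boxes in each library. The classes also differ in rank, as given above, and its part in these shares was not tested.

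Bound genes carried fewer summits each in both SEP3Δtet-AG libraries than in any SEP3-AG library. The mean number per bound gene was 1.11 and 1.09 in the SEP3Δtet-AG libraries, against 1.28, 1.23 and 1.32 with SEP3-AG (exact p = 0.1, again the smallest possible). Genes with at least 3 summits made up 0.444 ± 0.238% (SD, n = 2) of the genes bound by SEP3Δtet-AG and 3.72 ± 1.198% (SD, n = 3) of those bound by SEP3-AG. At equal list length the numbers were 1.07 and 1.09 with SEP3Δtet-AG, against 1.08, 1.08 and 1.08 with SEP3-AG (exact p = 0.6). The most summits at any gene were 4 with SEP3Δtet-AG and 6 with SEP3-AG. Mean numbers were higher with SEP3Δtet-AG for 709 genes, by at most 1.5 summits, and higher with SEP3-AG for 9687 genes, by at most 4.

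At the level of sites, the 5 libraries held 10881 distinct sites, counted over the whole genome, within reach of a gene or not. Of these 128 were SEP3Δtet-AG only (1.18%), 3742 SEP3-AG only (34.4%) and 1820 were present in all 5 libraries (16.7%). With lists of equal length there were 4063 sites, of which 727 were SEP3Δtet-AG only (17.9%), 801 SEP3-AG only (19.7%) and 986 in all 5 (24.3%). Among the 2788 genes bound in all 5 libraries, 2628 had at least 1 site called in all 5. A SEP3Δtet-AG-only site was present at 56 of the 2788 (2.01%) and a SEP3-AG-only site at 660 (23.7%). These genes were counted whether or not they also had a site called in all 5. At the 1820 shared sites the summits lay close together. The median distance was 9 bp between the 2 mutant libraries, 11 to 12 bp between a mutant and a SEP3-AG library and 7 to 8 bp between SEP3-AG libraries.

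AG itself had 1 of the 10 largest differences in summit number. It carried 3 and 2 summits with SEP3Δtet-AG, against 6, 6 and 6 with SEP3-AG, at 6 sites. The 2 sites called in all 5 libraries lay 1580 bp upstream and in the intron, 3690 bp from the start. The intron site had a fold enrichment over the local background of 7.26 and 4.50 with SEP3Δtet-AG, against 10.15, 8.61 and 11.60 with SEP3-AG. The highest SEP3-AG summit of the gene, 151 bp upstream, was called in neither mutant library and had 11.27, 10.61 and 11.98 with SEP3-AG. Fold enrichments were the authors' values for each library against the shared input, and were not put on a common scale. Lower mutant values were general. Over all genes bound in all 5 libraries, the best summit had a median of 4.64 and 3.80 with SEP3Δtet-AG. With SEP3-AG this median was 8.50, 7.24 and 9.59.

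With equal lists AG had 2 and 2 summits with SEP3Δtet-AG, against 4, 4 and 3 with SEP3-AG.

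SMZ and TOE1 encode AP2-type repressors of flowering. SMZ had 1 summit in each mutant library, against 4, 4 and 4 with SEP3-AG. Its site called in all 5 was 2685 bp upstream, and its 3 SEP3-AG-only sites were 1836 and 1118 bp upstream and downstream of the gene. With equal lists SMZ had 1 and 1, against 3, 3 and 3. TOE1 had 2 and 3 summits with SEP3Δtet-AG, against 5, 5 and 5 with SEP3-AG. This difference was not present at equal list length, where TOE1 had 1 and 3, against 2, 1 and 2. SOC1, a MADS gene that integrates flowering signals, had 2 and 2 summits, against 3, 3 and 3, at both list lengths. Its most enriched SEP3-AG site, 724 bp upstream, was called in neither mutant library and had 12.02, 10.92 and 13.60 with SEP3-AG. The site 21 bp upstream of its start was called in all 5, at 6.90 and 5.19 with SEP3Δtet-AG and 7.17, 6.93 and 8.35 with SEP3-AG.

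At KNU, the site 1226 bp upstream had 4.03 and 3.16 with SEP3Δtet-AG and 5.74, 5.15 and 6.86 with SEP3-AG. The site 860 bp upstream, which holds CCATGTTTGG, had no mutant summit and 5.19, 4.86 and 7.45 with SEP3-AG. These are the 2 KNU windows printed above. KNU was thus bound in all 5 libraries as a gene, while the site nearer to it was called with SEP3-AG only. In gel shift assays of the paper, SEP3Δtet-AG bound a KNU promoter probe with this CCATGTTTGG strongly, as a dimer. The lack of a mutant summit at this site is therefore not a lack of binding. At equal list length KNU counted as SEP3Δtet-AG only, with 1 and 1 summit in the SEP3Δtet-AG libraries, against 0, 0 and 0 with SEP3-AG. As given above, such moves were largely set by which lists were shortened.

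Other genes among the 10 with the largest difference in summit number were NIP1;2, AT2G38070, AT2G14080, ARF4, AT1G29100, TCP24, AS1 and scpl48. All 10 carried more summits with SEP3-AG. NIP1;2, which encodes a channel of the aquaporin family, had no summit in either mutant library, against 4, 4 and 4 with SEP3-AG. ARF4, an auxin response factor of organ polarity, had none, against 4, 3 and 4. The 4 NIP1;2 sites lay 2303, 879 and 348 bp upstream and in the 3′ UTR. AS1, a MYB gene that represses KNOX genes in leaves and floral organs, had 0 and 1 summit with SEP3Δtet-AG, against 4, 4 and 4. TCP24, a leaf and petal growth regulator, had 0 and 1, against 4, 4 and 4. At equal list length the differences were smaller. AS1 had 0 and 1, against 2, 2 and 2, and TCP24 had 0 and 1, against 3, 3 and 3. NIP1;2 had 0 and 0, against 0, 1 and 2, and ARF4 had no summit in any of the 5 libraries.

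**Figure D2:**
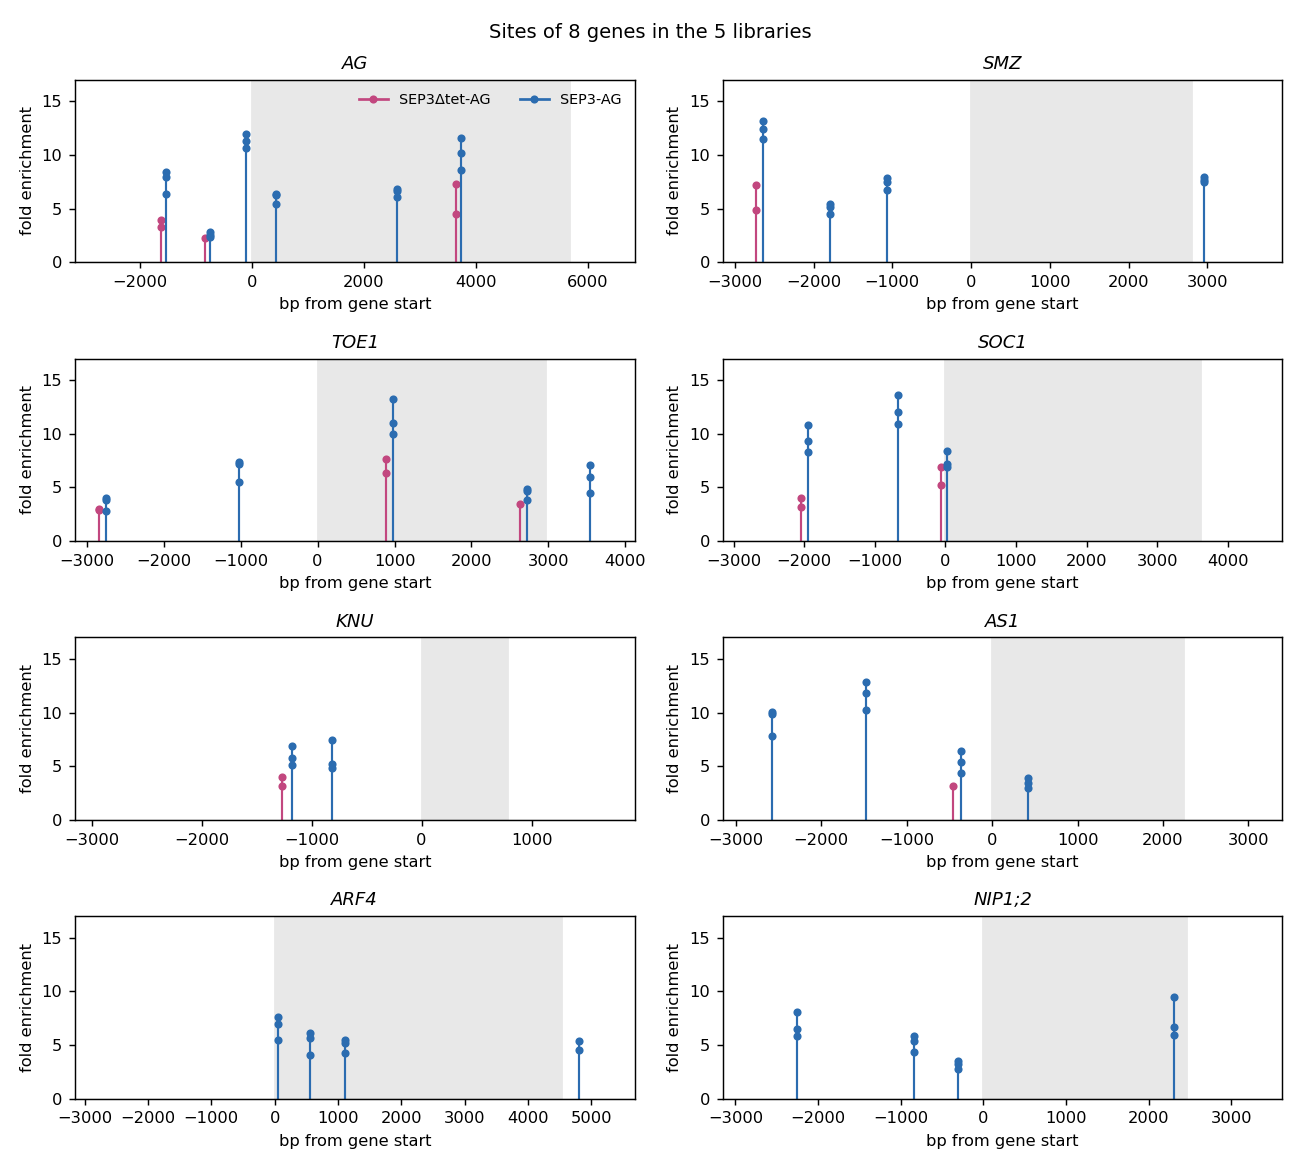
Fold enrichment (linear) of each site of 8 genes by distance in bp from the gene start, with the gene body in grey, 1 point per library and the complexes drawn slightly apart for clarity. AG has 6 sites with SEP3-AG, of which those 151 bp upstream and 397 and 2549 bp downstream of its start have no SEP3Δtet-AG point, and ARF4 and NIP1;2 have no SEP3Δtet-AG point at all.

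The list of 120 known regulators of flowering and flower development was chosen with earlier results of these data known. Its shares are therefore a description and not a test of enrichment. A larger share of these regulators than of all genes was bound in all 5 libraries. Of the 120, none was SEP3Δtet-AG only, 14 were SEP3-AG only (11.7%, against 15.2% of all genes) and 37 were bound in all 5 (30.8%, against 10.2%). A further 32 were bound in other combinations and 37 in no library. At equal list length 24 of the 120 were bound in all 5 (20%, against 5.75% of all genes). SEP3-AG only were 5 (4.17%, against 3.76%), near the share of all genes. SEP3Δtet-AG only were 9, in a class that held 3.37% of all genes. The 9 included KNU, FD, AGL24, SEP4, KNAT2, CUC2 and MYB57, which were bound in all 5 with all summits, and MYB33. Their move to this class was largely set by the shortening of the SEP3-AG lists, and is given as a description. ALC was the only regulator that was SEP3-AG only at both list lengths.

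Of 16 floral organ identity genes, 2 were SEP3-AG only and 6 were bound in all 5. The SEP3-AG-only genes were SEP1, a MADS gene redundant with SEP3 (6.19, 4.78 and 6.50), and CAL, a close relative of AP1 (7.30, 5.36 and 7.82). Those bound in all 5 were AG, AP1, AP3, SHP2, SEP4 and TT16. AP3, which specifies petals and stamens, had 1 summit per library, 63 bp into its transcript. Its fold enrichment was 9.72 and 6.58 with SEP3Δtet-AG and 12.59, 12.45 and 14.29 with SEP3-AG. SHP2 had 9.18 and 5.62, against 11.51, 10.38 and 11.63. AP1, a gene of sepals, petals and meristem identity, had 3.03 and 3.02, against 9.46, 6.87 and 8.78. TT16, a MADS gene of the seed coat, had 2 summits in each of the 5 libraries. SEP3 itself had 2 and 0 summits with SEP3Δtet-AG, against 2, 2 and 2 with SEP3-AG. SEP2, SHP1 and STK had none in these 5 libraries.

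Flowering time and meristem identity genes made up 24 of the list, of which 1 was SEP3-AG only and 11 were bound in all 5. The SEP3-AG-only gene was LFY, the meristem identity regulator that activates AG, with summits of 2.72, 3.19 and 3.40. These ranked low, at 95.3%, 86.1% and 91.2% from the top of the SEP3-AG lists. The 11 included SOC1, SVP, AGL24, AGL15, AGL18 and the AP2-type genes TOE1, TOE3, SMZ and SNZ. FD, the bZIP partner of the FT protein, had 1 and 2 summits with SEP3Δtet-AG, against 3, 2 and 4. The best FD summits had 3.71 and 3.33 with SEP3Δtet-AG and 5.35, 5.12 and 6.08 with SEP3-AG. At equal list length, which shortened mainly the SEP3-AG lists, FD had 1 and 2 summits, against 0, 0 and 0. AGL24, a MADS gene that promotes flowering, was a case in which the values overlapped. It had 4.13 and 3.48 with SEP3Δtet-AG and 4.02, 2.75 and 4.30 with SEP3-AG. TFL1, UFO and CO had no summit in these 5 libraries.

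Of 14 genes of meristem size and termination, AHL21 was SEP3-AG only (4.49, 3.44 and 4.97), and KNU, SUP and KNAT2 were bound in all 5. AHL21 encodes GIANT KILLER, an AT-hook protein of carpel and stamen patterning. SUP had 8.96 and 5.91 with SEP3Δtet-AG and 13.74, 13.58 and 15.57 with SEP3-AG. WUS, CLV1 and CRC had no summit in the 5 libraries. Among 14 cofactors and boundary genes, LUG, a corepressor that acts on AG, was SEP3-AG only (4.24, 3.21 and 3.74), as was PUCHI, an AP2/ERF gene of bract and floral meristem fate (3.79, 3.42 and 5.22). BOP1, BOP2, the boundary gene CUC2 and the petal gene RBE were bound in all 5. BOP2, a gene of organ bases and abscission zones, had 2 and 2 summits with SEP3Δtet-AG, against 4, 3 and 5 with SEP3-AG. It had 2 at equal list length in each of the 5 libraries.

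Of 20 carpel, ovule and fruit genes, 4 were SEP3-AG only and 5 were bound in all 5. The SEP3-AG-only genes were ALC, ETT, NGA2 and NGA4. ALC, a bHLH gene of fruit opening, had 9.84, 7.63 and 8.005, and ETT, an auxin response factor of carpel patterning, had 6.45, 5.13 and 8.71. NGA2 and NGA4 encode B3 proteins of the style. Those bound in all 5 were the bHLH genes HEC1, HEC3, SPT and IND, which act in the transmitting tract and fruit margins, and VDD, a B3 gene of the ovule. HEC1 had 5.95 and 4.73 with SEP3Δtet-AG and 12.08, 11.81 and 12.68 with SEP3-AG.

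Of 15 stamen and pollen genes, SPL, also called NOZZLE, which starts sporogenesis downstream of AG, was SEP3-AG only (4.39, 3.41 and 5.002). MYB21, MYB57 and the tapetum regulators AMS and MS1 were bound in all 5. MYB21, which drives filament growth, had 8.82 and 7.48 with SEP3Δtet-AG and 16.81, 17.80 and 19.44 with SEP3-AG, at a site downstream of the gene. These were the highest values of the list in the SEP3-AG libraries and in SEP3Δtet-AG replicate 2, while AP3, SHP2 and SUP were above it in SEP3Δtet-AG replicate 1. MYB33 went the other way, with 4.22 and 3.72 in the mutant libraries and a summit in SEP3-AG replicate 3 only (3.26). Of 11 hormone genes, 3 were SEP3-AG only. These were GA3OX1, for the last step of gibberellin synthesis, TAA1, for auxin synthesis, and GNL, a GATA factor of gibberellin and cytokinin responses. GA3OX2, a gene of the same step, was bound in all 5. Its summit also lay in reach of GA3OX4. Of 6 polarity genes, YAB2 and YAB3 were bound in all 5 and none was in a class of a single complex.

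**Figure D3:**
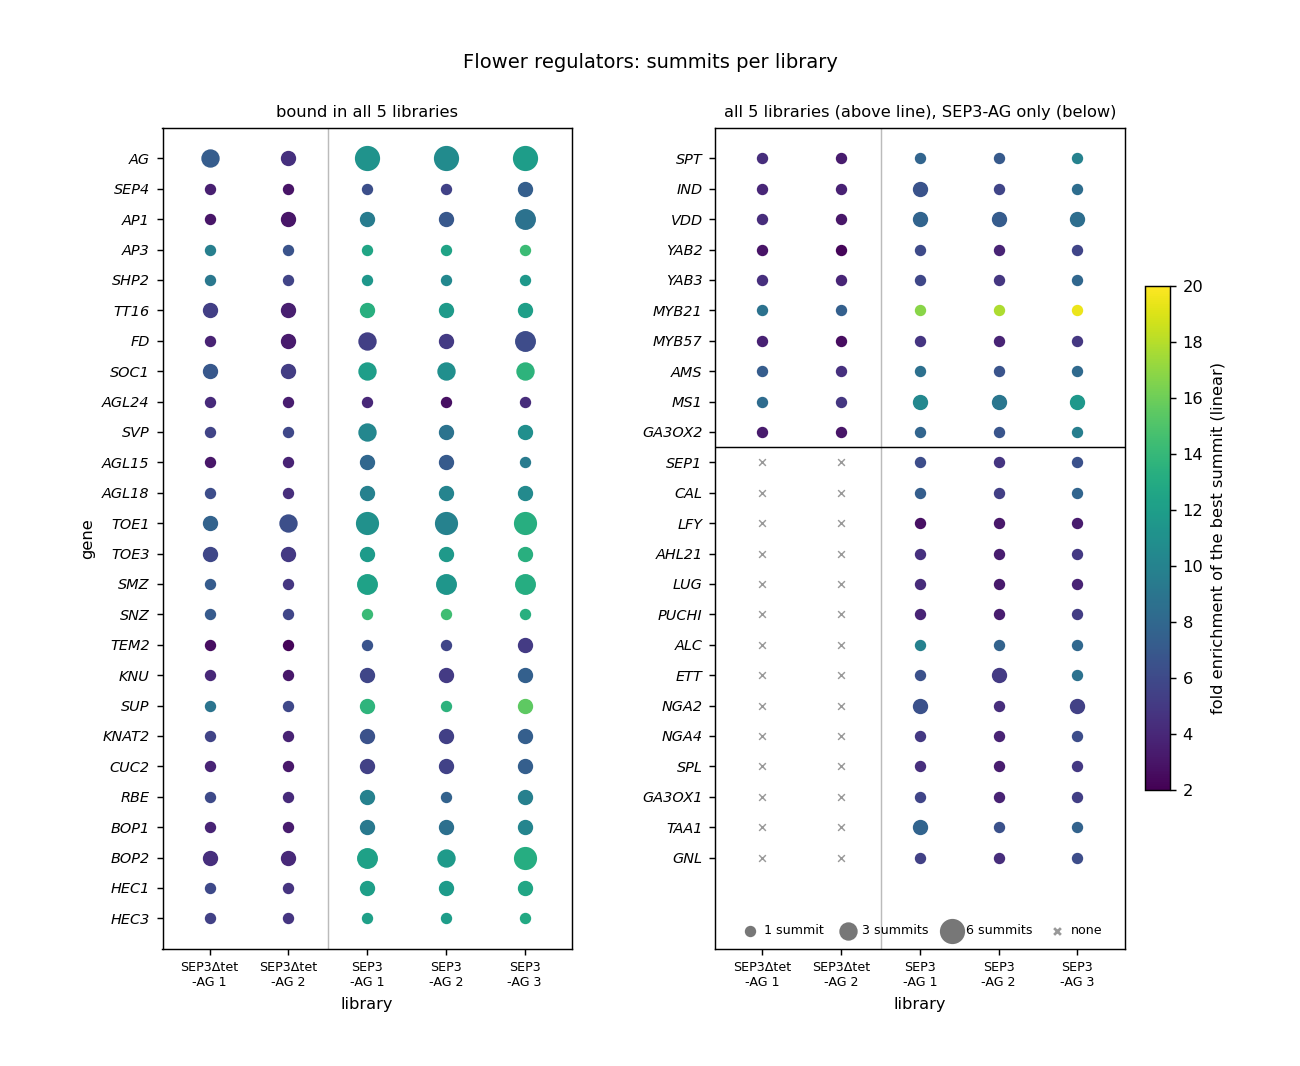
Of the regulators, 36 of the 37 bound in all 5 libraries and the 14 that were SEP3-AG only, 1 column per library. Point size is the number of summits, colour is the fold enrichment of the best summit (linear, not on a common scale across libraries) and a cross is no summit. AG has 3 and 2 summits with SEP3Δtet-AG and 6 in each SEP3-AG library, and MYB21 has the highest fold enrichment in each SEP3-AG library.

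Gene families, also chosen with earlier results of these data known, were described beside the share of all genes. Of 122 MADS-box genes, 1 was SEP3Δtet-AG only, 23 were SEP3-AG only (18.9%, against 15.2%) and 29 were bound in all 5 (23.8%, against 10.2%). The gene with mutant summits only was AGL48 (4.42 and 3.73). By the lowest of their 3 values, the leading SEP3-AG-only MADS genes were AGL94 (12.36, 12.48 and 13.35), AT5G26630 (12.50, 10.66 and 11.80) and AGL61 (10.76, 10.13 and 12.97), the last a gene of the central cell of the ovule. Of the 3 sites of AT5G26630, 1 was called in all 5 libraries, with the mutant summits just outside the region of the gene. At equal list length 9 MADS genes were SEP3-AG only (7.38%, against 3.76%) and 21 were bound in all 5 (17.2%, against 5.75%). SEP3Δtet-AG only were 5, in a class that held 3.37% of all genes.

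Auxin response factors and Aux/IAA repressors had the highest SEP3-AG-only share of the 35 families with all summits, 16 of 45 (35.6%). With equal lists it was 2 of 45 (4.44%, against 3.76% of all genes), so the high share was seen only with the longer lists. Their median gene length was 2973 bp. By their lowest value over the SEP3-AG libraries, the SEP3-AG-only genes of this family were led by ARF1 (9.95, 9.39 and 9.75), AXR3 (8.24, 7.62 and 9.13) and ARF10 (7.52, 6.47 and 7.34). WRKY genes, which act mostly in defence and senescence, were SEP3-AG only in 19 of 72 cases (26.4%) and in 8 of 72 at equal list length (11.1%). WRKY21 had 9.42, 8.87 and 12.06. AT-hook genes were SEP3-AG only in 8 of 34 cases (23.5%) and in 4 of 34 at equal length (11.8%), where AT1G63470 and AT1G63480 shared a summit. The bHLH genes were SEP3-AG only in 29 of 133 cases (21.8%) and in 7 at equal length (5.26%).

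Other families had a larger share in the class bound in all 5 libraries than among SEP3-AG-only genes. Of 15 gibberellin oxidase genes, 4 were bound in all 5 (26.7%) and 2 were SEP3-AG only, and at equal length 3 and 0. Of 94 C2H2 zinc finger genes, 19 were bound in all 5 (20.2%) and 12 were SEP3-AG only (12.8%). Of 107 NAC genes 18 were bound in all 5 (16.8%) and 14 at equal length (13.1%, against 5.75%), with NAC3 at 13.28 and 8.03 with SEP3Δtet-AG and 14.16, 14.40 and 17.03 with SEP3-AG. SAUR genes, which respond to auxin early and are short, were bound in all 5 in 13 of 78 cases (16.7%) and SEP3-AG only in 4 (5.13%). Ribosomal protein genes were below the background in both, with 17 of 344 (4.94%) bound in all 5 and 40 (11.6%) SEP3-AG only. None of 16 SBP-box genes was SEP3-AG only and 1 was bound in all 5.

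Among the SEP3Δtet-AG-only genes, several neighbours shared a summit. AT1G02210 and NAC003, both NAC genes, shared a summit of 3.97 and 3.76. The pectin methylesterase inhibitor genes AT3G17130, AT3G17140 and AT3G17150 shared a summit of 3.82 and 3.80. DOF6, CDF1, a Dof repressor of flowering that cycles over the day, and MYB96, a drought and wax regulator, were also in this class, at 3.67 and 3.36, 3.05 and 2.89, and 3.32 and 3.22. By the lower of the 2 mutant values, the class was led by AT1G10095, AT1G10100 and AT1G10110, at a shared summit of 4.52 and 4.76. AT4G12530 was higher in replicate 1, with 5.82 and 4.39. ASML2, a CCT-domain activator of sugar-responsive genes, had 4.42 and 4.52. By the lowest of the 3 SEP3-AG values, the SEP3-AG-only genes were led by STT3A, a subunit of the N-glycosylation complex (14.07, 14.60 and 15.54), and by the neighbours AT2G24255 and LRL1, a root hair bHLH gene (13.87, 13.97 and 14.97). AT3G28600 (14.51, 13.61 and 14.67), the neighbours AT3G32150 and AT3G32160 (13.46, 14.28 and 17.20) and BAM2, a receptor kinase related to CLV1 (13.59, 12.76 and 13.85), came next.

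**Figure D4:**
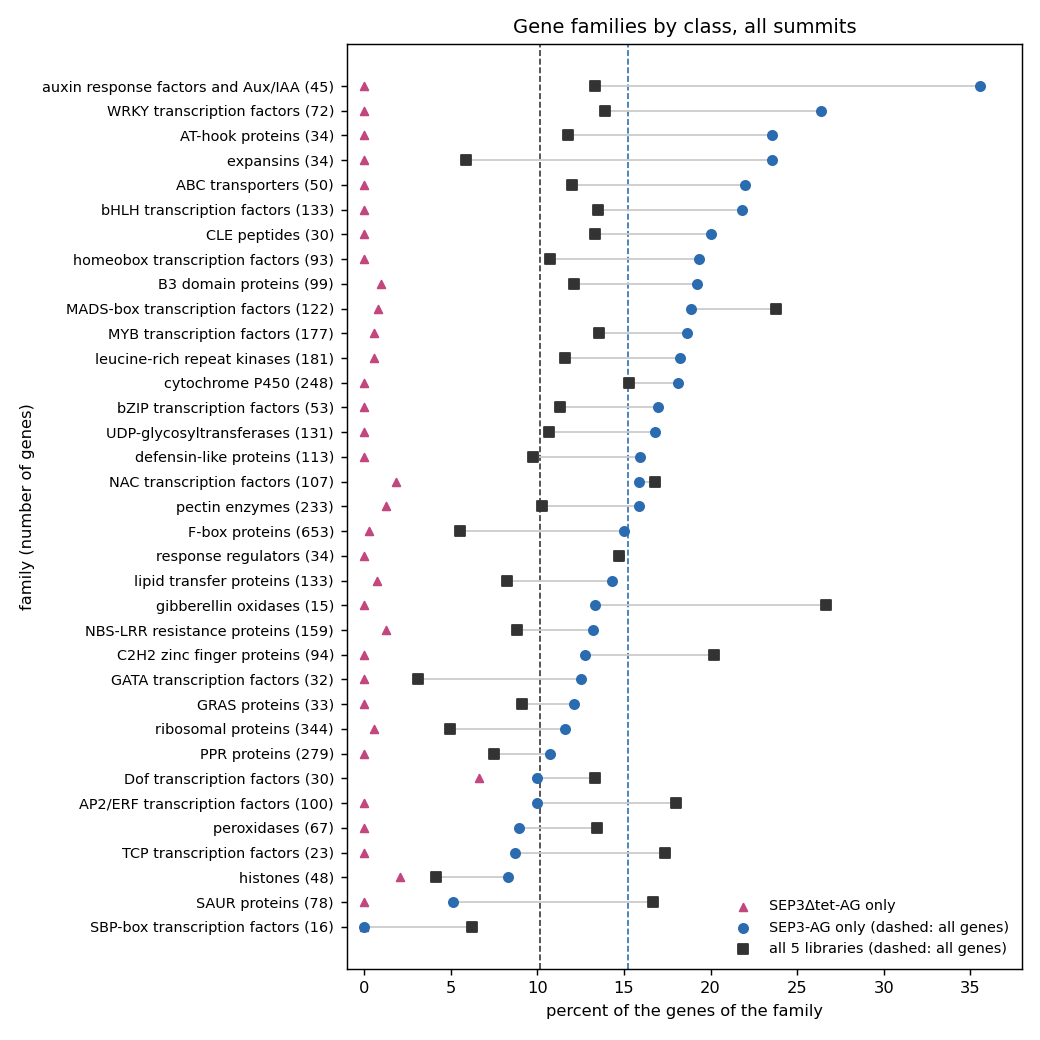
Share of the genes of 35 families in each class with all summits, as a percentage of the family. Triangles are SEP3Δtet-AG-only genes, circles SEP3-AG-only genes and squares genes bound in all 5 libraries, with dashed lines at the shares of all genes (15.2% and 10.2%). Auxin response factors and Aux/IAA have the highest SEP3-AG-only share, 35.6%, which was 4.44% with lists of equal length.

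The place of the summits in the gene differed little between the complexes. Each pair of a summit and a gene in reach was assigned to 1 of 7 places, and the share of positions of the searched regions in each place gave the background. Upstream within 1000 bp lay 27.7 ± 0.376% of the SEP3Δtet-AG pairs (SD, n = 2) and 26.3 ± 0.667% of the SEP3-AG pairs (SD, n = 3), against 15.6% of positions. Coding exons held 3.01 ± 0.128% with SEP3Δtet-AG and 3.49 ± 0.322% with SEP3-AG, against 18.02% of positions. Introns held 10.4 ± 0.642% and 11.0 ± 0.492%, and the 3′ UTR 4.48 ± 0.200% and 4.97 ± 0.137%. The region from 1000 to 3000 bp upstream held 31.5 ± 0.355% and 32.0 ± 0.271%, near its 31.2% of positions. The largest difference was 1.39 percentage points, upstream within 1000 bp (exact p = 0.2, 0.35 after Benjamini-Hochberg adjustment over the 7 places). The adjusted p-values of the other 6 places were 0.35 to 0.70, and 3 against 2 libraries could not have passed 0.05. The coding exon difference turned its direction at equal list length (0.67 percentage points, SEP3Δtet-AG minus SEP3-AG, against -0.49 with all summits).

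**Figure D5:**
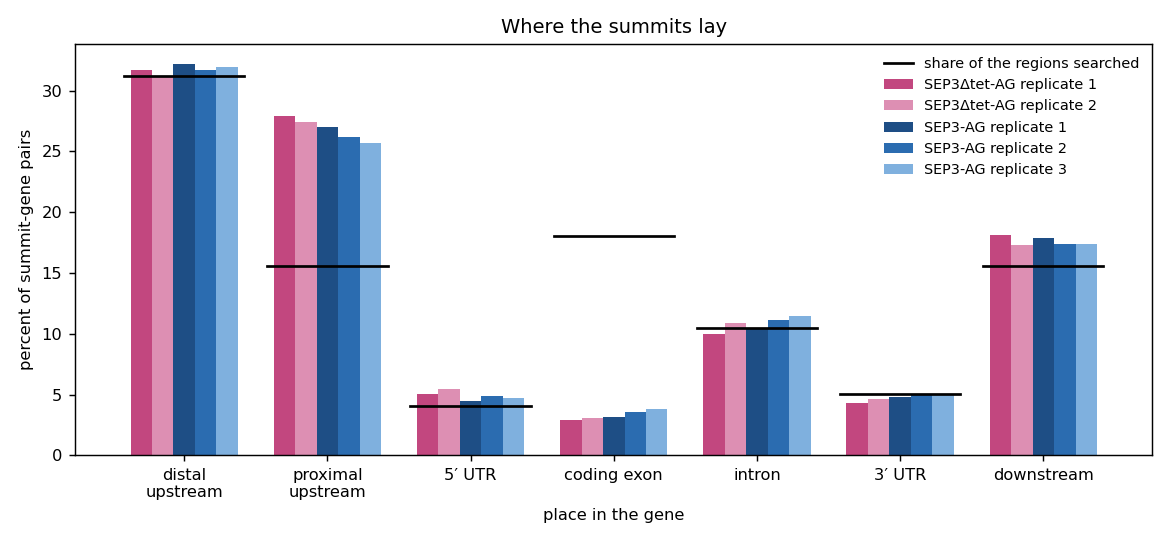
Percentage of summit-gene pairs in each of 7 places of the gene for the 5 libraries, with black lines at the share of the searched positions. In all 5 libraries the region within 1000 bp upstream is above its 15.6% of positions and the coding exons are below their 18.02%.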

How the data were processed

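Peak lists of 2 SEP3Δtet-AG and 3 SEP3-AG seq-DAP-seq libraries were used. Before deposit, the authors trimmed the reads and removed adapters, aligned them to TAIR10 with bowtie2, removed duplicates with SAMtools and called peaks with MACS2 in each library against the same input DNA. The deposited fold enrichment is a ratio over the local background, and the deposited −log10 p-value and −log10 q-value rank the summits. Lists of 4 SEP3 libraries were used only for counts in the closing section. Depth relative to the input was recovered from the step size of the pileups of the 300 weakest summits of each list, 100% of which were whole multiples within 0.004.

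Genes came from the RefSeq annotation of TAIR10.1, as did the sequences. Families were taken from annotated gene products. A summit was placed in a gene by 3000 bp upstream and 1000 bp downstream limits. Libraries were compared by exact two-sided permutation tests over 10 arrangements, with Python 3.11.15, numpy 2.4.6 and pandas 2.3.3. The gene counting was tested on simulated data. Genes were named by class, by number of sites, by highest lowest fold enrichment of a complex or by difference in summit number, and SHP2, AGL24, MYB33, the regulators without a summit and the miRNA genes were named after their values were seen. Some genes and sites that these rules name are not reported here. The members, gene lists and families were chosen with earlier results of these data known. Alternatives were other gene regions, list lengths, thresholds, box definitions and libraries left out.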

Additional observations from a re-analysis of the deposited data

Results flagged for a closer look

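The 4 libraries of SEP3 alone, purified through FLAG only, were outside the comparison but held summits at genes of both single-complex classes. A summit in at least 2 of the 4 SEP3 libraries was present at 8 of the 99 SEP3Δtet-AG-only genes (8.08%) and at 448 of the 4183 SEP3-AG-only genes (10.7%). The share was 63.7% of the 2788 genes bound in all 5 libraries and 11.3% of all 27444 genes. By single library the order was not the same. In SEP3 replicate 4, the longest of the SEP3 lists, 52.5% of SEP3Δtet-AG-only genes, 50.9% of SEP3-AG-only genes and 36.0% of all genes had a summit, against 3.03%, 0.861% and 2.47% in replicate 1, 1.01%, 5.02% and 6.61% in replicate 2 and 7.07%, 7.51% and 9.19% in replicate 3. AT4G12530 was among the 8, with summits in 2 SEP3 libraries.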

How the results depend on the processing

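The mean differences in genes bound per library and in summits per bound gene kept their sign under every alternative run, but with equal lists they were only -40.7 genes (exact p = 0.4) and -0.0044 summits (exact p = 0.6), and the libraries of the complexes overlapped. With 1 library left out the differences (SEP3Δtet-AG minus SEP3-AG) were -6766 to -5322 genes and -0.201 to -0.156 summits. Pairing libraries by replicate number (numbers 1 and 2, shared by the labels only) left out SEP3-AG replicate 3. It gave mean differences of -5484 genes and -0.156 summits, the same values as leaving out that library alone. The exact paired p was 0.5 for both, the smallest that 2 pairs allow. The SEP3Δtet-AG-only genes were 99, and 65 with only 1000 bp upstream and the gene body, 69 with the nearest gene only and 924 with equal lists, and 101 to 231 with 1 library left out (231 without SEP3Δtet-AG replicate 2, 149 without SEP3-AG replicate 3). The SEP3-AG-only genes were 4183, and 2492, 2653 and 1033 under the same settings, and 4245 to 5486 with 1 library left out. The genes bound in all 5 were 2788, and 1437, 1636 and 1577, and 2791 to 3828 with 1 library left out. The share of pairs downstream of genes (0.14 percentage points higher with SEP3Δtet-AG) was -0.33 with equal lists, -0.019 at −log10 q of at least 10 and -0.25 to 0.52 with 1 library left out, and that in coding exons (-0.49) was 0.67 with equal lists. The share of summits with a box, at genes bound in all 5 minus SEP3-AG-only genes, was 4.71 percentage points, and 5.42 within 100 bp, 11.9 with 1 mismatch and 5.91 with equal lists. The causes of these changes were not tested. Equal lists also changed the family counts, which are given with the families. Limits are the single input, binding below threshold, and neighbours that share a summit.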

Other observations

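Genes of miRNAs were classed in the same way, after their values were seen. Of 326, 1 was SEP3Δtet-AG only, 44 were SEP3-AG only (13.5%, against 15.2% of protein-coding genes) and 21 were bound in all 5 libraries (6.44%, against 10.2%). The mutant-only gene was MIR156c, with 1 summit in each SEP3Δtet-AG library and none in the SEP3-AG libraries. Other genes of the miR156 family, whose product represses SPL genes and so delays flowering, fell in other classes. MIR156a, MIR156d and MIR156e were bound in all 5 libraries, MIR156f, MIR156h and MIR156i were SEP3-AG only, and MIR156g was bound in SEP3Δtet-AG replicate 1 and in the 3 SEP3-AG libraries. MIR166a, MIR166b, MIR166d and MIR166e, of the family that restricts the HD-ZIP III polarity genes, were SEP3-AG only, while MIR166g was bound in SEP3Δtet-AG replicate 1 as well. MIR167a and MIR167d, which act on auxin response factors, were SEP3-AG only as well. MIR390a, which starts the production of small RNAs against ETT and ARF4, and MIR319c were bound in all 5.

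At shared sites the summits were not placed apart by the complex to a large degree. A mutant and a SEP3-AG summit of the same site lay within 50 bp of each other in 94.1% to 94.8% of the 1820 sites, against 98.4% for the 2 mutant libraries.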
